A study of Mus musculus with 6 samples.

Results

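The bone morphogenetic protein (BMP) genes followed here are 6 ligands (Bmp2, Bmp4, Bmp5, Bmp6, Bmp7 and Bmp8a) and 4 receptors (Bmpr1a, Bmpr1b, Bmpr2 and Acvr1). They were taken by name, as every spot annotated to 1 of these symbols alone, which gave 44 of the 45220 spots of the array and 10 of the 19077 genes with a fitted value. The RNA came from Swiss white mouse hind limbs without genetic change or treatment, at 3 ages given in days post coitum (dpc). The 11.5 dpc pool was pre-condensed mesenchyme from 4 limbs, the 12.5 dpc pool mesenchymal condensation from 3 limbs and the 13.5 dpc pool cartilage anlagen from 4 limbs, all cut by hand from the region of the tibia and fibula in a total of 231 sections and amplified before labelling. Each pair of ages was hybridised on 2 two-colour Agilent arrays with the dyes exchanged, array 1 with the later age in Cy5 and array 2 with the later age in Cy3.

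BMPs are secreted growth factors of the TGF-beta superfamily. A dimer of ligand brings together type I receptors (Bmpr1a, Bmpr1b and Acvr1 among them) and type II receptors such as Bmpr2, and the type II kinase activates the type I kinase, which phosphorylates Smad1, Smad5 and Smad9 for transport with Smad4 into the nucleus. In the limb bud this signalling is needed for mesenchyme to condense and become cartilage, and Bmpr1a and Bmpr1b can stand in for each other in that step in the mouse. Secreted binders such as noggin and gremlin limit how much ligand reaches the receptors.

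The values are log2 ratios of the later over the earlier age, with the median of every array set to 0, and spots of the same gene were averaged. A value of 0 means a ratio equal to that of the median spot, not an equal amount of RNA. The fitted values combine all 6 arrays by least squares, and the standard error (SE) beside them reflects only how well those 6 arrays of the same 3 pools fit together. With 1 pool per age there was no biological replicate, so no test across animals was possible and a difference was called by its size, at least 3-fold in the fit. Ratios carry no absolute level, so the level of a gene is never set against that of another, and levels over time are given as folds over the lowest age of that gene. In pooled tissue, fewer cells of a type and less RNA per cell cannot be told apart. Over all spots the arrays of a dye pair correlated at 0.518, 0.397 and 0.332 for 13.5 over 11.5, 12.5 over 11.5 and 13.5 over 12.5 dpc. They correlated at 0.751, 0.498 and 0.502 once spots marked as dim were left out. The dim mark, a stand-in for weak signal, rests on the ratios and not on intensities, so a spot without it may still be weak. Dim spots read, to 3 decimals, the logarithm of a small whole-number ratio (no term above 12) on at least 2 arrays. On a single array 11.6% to 27.8% of the values met this. Dim spots made up 33.3% of all spots and 8 of the 44 BMP spots.

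The ligands and the receptors lay on opposite sides of the all-gene median over the whole interval. From 11.5 to 13.5 dpc, Bmp8a, Bmp7 and Bmp6 were at least 3-fold higher, Bmpr1b was at least 3-fold lower, and the other 6 genes were within 3-fold. Over all 19077 genes, 2.93% passed that size upwards and 2.57% downwards in this comparison. The 6 ligands were all above 0, with a median of 1.72 log2, and the 4 receptors were all below 0, with a median of -0.85, where the median of all genes was 0.07 and their 5th to 95th percentiles ran from -1.24 to 1.24. Each of the 10 genes had the same sign on both direct arrays, which carry the same RNA. The share of all genes that did so was not computed. The same 3 ligands were past 3-fold on both direct arrays, as were 2.03% of the 18613 genes with both values, and so was the same receptor, as were 1.95%.

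**Figure D1:**
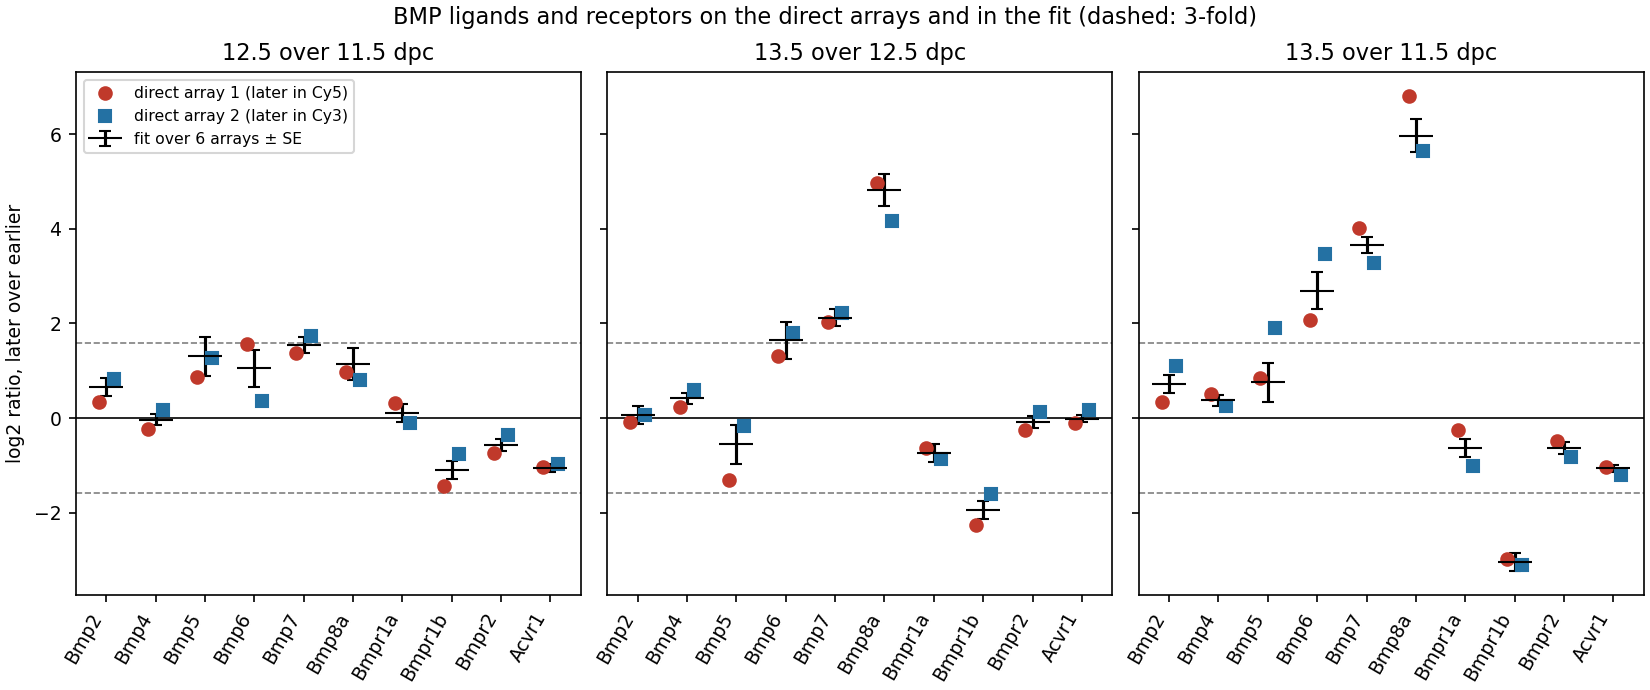
Log2 ratio of the later over the earlier age (vertical axis) for each of the 10 genes in the 3 comparisons. Circles and squares are the 2 direct arrays, the black marks the fit over 6 arrays with its SE, and the dashed lines 3-fold. Bmp8a, Bmp7 and Bmp6 lie above the upper line and Bmpr1b below the lower line for 13.5 over 11.5 dpc on both arrays.

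Bmp8a, a ligand of the BMP5 to BMP8 subgroup best known from the male germ line of the mouse, had the widest ratio of the 10 genes. For 13.5 over 11.5 dpc its only spot read 6.80 log2 on array 1 and 5.65 on array 2. For 12.5 over 11.5 dpc it read 0.97 and 0.80, and for 13.5 over 12.5 dpc 4.96 and 4.16. The ratio was thus above 0 in the first day and larger in the second, in each dye orientation. The fit gave 5.97 ± 0.34 (SE) for the whole interval, a 62.5-fold difference that ranked 8 among the 19077 genes. The later step alone was 4.82 ± 0.34, or 28.3-fold, the third highest of all genes, and held 80.8% of the log2 change. The arrays did not close exactly for this spot, since the early and late steps together fell short of the direct comparison by 0.78 log2. The spot was not dim on any array.

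Bmp8b, the close paralogue of Bmp8a that lies in the same region of chromosome 4, is not 1 of the 10 genes, and its only spot was dim, so its readings may not stand above background and do not show how the gene behaved. It read 0.64 for 13.5 over 11.5 dpc on array 1 and had no value on array 2, and it read 0.18 and -0.19 for 13.5 over 12.5 dpc. Whether the Bmp8a spot also binds Bmp8b transcripts was not tested, as probe sequences were not used here. To set the genes side by side, the promoters of both, 300 bases that end just past the annotated start, are shown from RefSeq (build GRCm38.p6; Bmp8a chr4:123343203-123343502 on the minus strand, Bmp8b chr4:123104911-123105210 on the plus strand), 5' to 3' on the strand of the gene, with matches to the GC box GGGCGG on either strand in capitals.
Bmp8a: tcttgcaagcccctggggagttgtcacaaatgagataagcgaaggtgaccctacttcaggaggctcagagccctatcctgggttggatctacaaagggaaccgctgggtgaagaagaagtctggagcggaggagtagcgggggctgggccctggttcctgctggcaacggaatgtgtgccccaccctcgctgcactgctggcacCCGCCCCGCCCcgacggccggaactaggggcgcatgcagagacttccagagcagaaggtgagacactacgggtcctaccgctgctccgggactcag
Bmp8b: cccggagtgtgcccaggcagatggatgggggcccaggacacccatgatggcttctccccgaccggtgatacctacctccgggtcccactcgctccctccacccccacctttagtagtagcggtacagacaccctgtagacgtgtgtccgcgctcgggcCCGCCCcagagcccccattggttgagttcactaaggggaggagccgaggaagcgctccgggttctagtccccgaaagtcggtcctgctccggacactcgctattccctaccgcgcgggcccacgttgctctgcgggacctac
Bmp8a held 2 matches, which overlap, and Bmp8b held 1, and a GC box was found in 35.7% of the 32851 promoters of the same length. Neither window held TATAAA, which was found in 13.6% of promoters, nor AACAAT, the core letters bound by Sox factors, found in 10.7%, nor GGCGCC, a GC element bound by BMP Smads, found in 11.9%. The windows held 15 and 23 CpG dinucleotides, against a median of 7 over all promoters.

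Bmp7, a ligand of the same subgroup that is made in many developing organs and in the perichondrium, had the most spots of the set, 11 of 1 transcript and none of them dim. For 13.5 over 11.5 dpc the 11 spots ran from 3.88 through a median of 4.03 to 4.12 on array 1, and from 2.996 through 3.31 to 3.39 on array 2. For 12.5 over 11.5 dpc their medians were 1.34 and 1.76, and for 13.5 over 12.5 dpc 2.03 and 2.24. The spots of 1 array differed by far less than the arrays did, with SDs of 0.049 to 0.121 within an array, so most of the spread lay between arrays. In the fit Bmp7 was 3.66 ± 0.17 (SE), or 12.7-fold, higher at 13.5 than at 11.5 dpc, which ranked 74 of all genes, and the fits of the single spots ran only from 3.59 to 3.75. It was above 0 in the first day, at 1.54 ± 0.17, or 2.91-fold, just short of 3-fold, beside 1.14 ± 0.34 for Bmp8a, and gained a further 2.12 ± 0.17, or 4.35-fold, in the second. The 3-fold line for 12.5 over 11.5 dpc fell within its error: 4 of 17 other settings put Bmp7 past it, among them centring on the spots that were not dim, at 1.71.

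Set against each other on the direct arrays, Bmp8a and Bmp7 changed order between the steps. The log2 ratio of Bmp8a was lower than that of Bmp7 by 0.40 and 0.94 for 12.5 over 11.5 dpc (differences of -0.40 and -0.94), and higher by 2.92 and 1.94 for 13.5 over 12.5 dpc. Over the whole interval Bmp8a exceeded Bmp7 by 2.79 and 2.37. Each pair of arrays had 1 sign, but the order of the first day was the other way on the indirect path through 13.5 dpc, at 1.67 for Bmp8a and 1.52 for Bmp7, and the Bmp8a side is a single spot.

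Bmp6, a ligand of the same subgroup that is known from hypertrophic cartilage, was 2.69 ± 0.39 (SE), or 6.46-fold, higher at 13.5 than at 11.5 dpc, rank 171. It rests on 2 spots that disagree. The spot that was not dim read 3.85 and 2.70 for 13.5 over 11.5 dpc, 1.17 and 0.33 for 12.5 over 11.5 dpc and 2.72 and 2.86 for 13.5 over 12.5 dpc. The dim spot of the same transcript read 0.29 and 4.25, then 1.98 and 0.41, then -0.09 and 0.75. The spot that was not dim was therefore high in the later step on both arrays, whereas the dim spot was low there on both. For 13.5 over 11.5 dpc the readings of the dim spot lay far apart between the arrays. Fitted alone, the spot that was not dim and the dim spot gave 3.36 and 2.02 for the whole interval, both past 3-fold, but 2.70 and 0.58 for the later step. The gene value of that step was 1.64 ± 0.39, or 3.12-fold, and in 7 of 17 other settings it was below 3-fold, down to 1.04 in the arrays with the later age in Cy5 alone. The promoter of Bmp6 (GRCm38.p6, chr13:38345466-38345765, plus strand, GC box match in capitals) is shown for comparison with that of Bmp8a, which was higher in the same step.
Bmp6: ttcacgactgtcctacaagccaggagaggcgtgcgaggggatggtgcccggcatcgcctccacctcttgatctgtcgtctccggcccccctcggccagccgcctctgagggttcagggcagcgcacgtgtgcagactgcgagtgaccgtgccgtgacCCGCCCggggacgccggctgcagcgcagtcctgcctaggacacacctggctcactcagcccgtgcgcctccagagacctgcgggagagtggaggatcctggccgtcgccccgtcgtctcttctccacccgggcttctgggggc
It held 1 GC box, none of the other 3 motifs, and 27 CpG dinucleotides.

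**Figure D2:**
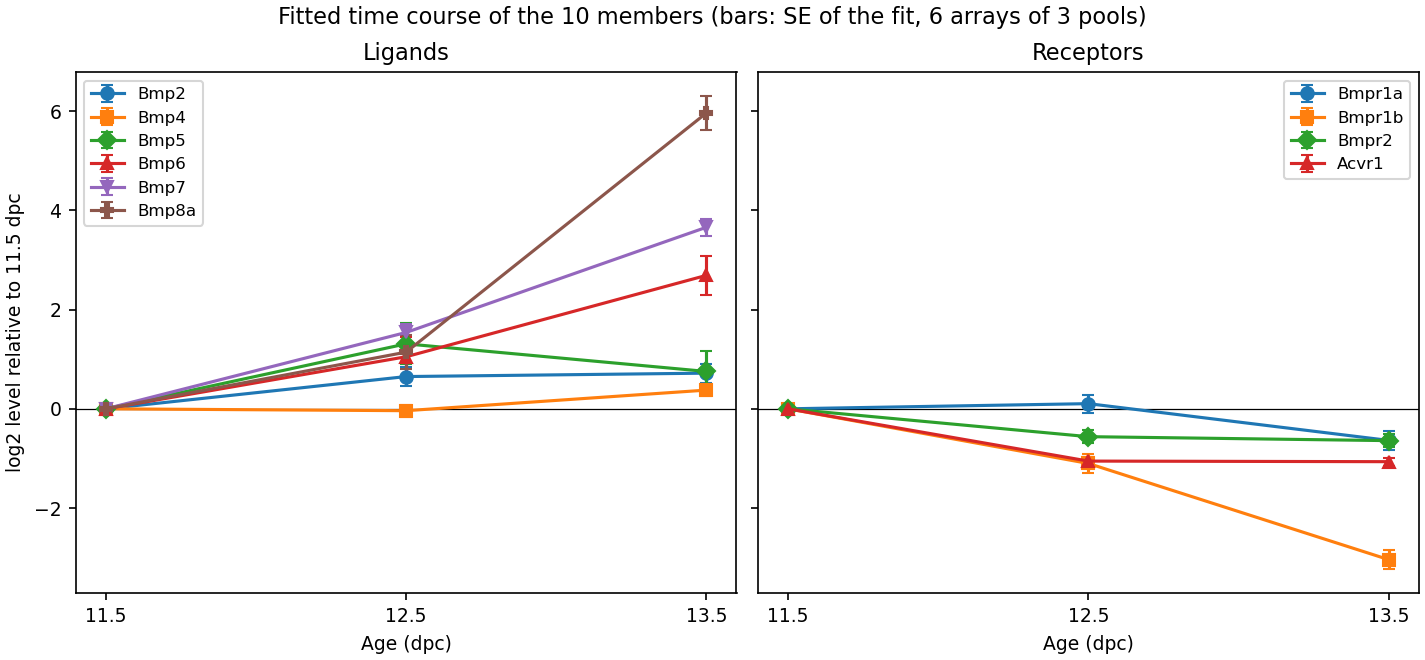
Fitted log2 level relative to 11.5 dpc (vertical axis) against age in dpc for the 6 ligands and the 4 receptors, with bars for the SE of the fit over 6 arrays of 3 pools. Bmp8a, Bmp7 and Bmp6 climb to 5.97, 3.66 and 2.69 at 13.5 dpc, and Bmpr1b goes down to -3.04 over both steps while Acvr1 reaches its value at 12.5 dpc.

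Bmp2, Bmp4 and Bmp5, the other 3 ligands, stayed within 3-fold in all 3 comparisons. Bmp4, a ligand that patterns the limb mesenchyme and its ectodermal ridge, had 10 spots, none of them dim, and they lay close together with SDs of 0.035 to 0.097 within an array. Their medians for 13.5 over 11.5 dpc were 0.49 and 0.24, for 12.5 over 11.5 dpc -0.23 and 0.16 and for 13.5 over 12.5 dpc 0.23 and 0.59. In the fit Bmp4 was 0.38 ± 0.12 (SE) higher over the whole interval, or 1.30-fold, and -0.04 ± 0.12 in the first day, where its sign differed between the direct arrays and the value was 0.41 without centring. Bmp4 and Bmp7 were the genes with 10 or more spots and no dim spot. Within an array, the ratio of Bmp7 exceeded that of Bmp4 by 3.52 and 3.03 log2 for 13.5 over 11.5 dpc, by 1.60 and 1.57 for 12.5 over 11.5 dpc and by 1.80 and 1.63 for 13.5 over 12.5 dpc. That difference does not depend on the centre, and it was above 0 on all 6 arrays, though the arrays of a pair differed most for 13.5 over 11.5 dpc.

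Bmp2, a ligand that induces cartilage and bone, had 10 spots of 1 transcript, 5 of them dim, and the spots scattered with SDs of 0.203 to 0.624 within an array. For 13.5 over 11.5 dpc they ran from -0.35 through a median of 0.40 to 0.60 on array 1, where 1 spot had no value, and from 0.40 through 0.95 to 2.58 on array 2. For 12.5 over 11.5 dpc the medians were 0.29 and 0.83, and for 13.5 over 12.5 dpc -0.07 and 0.09. The fit gave 0.72 ± 0.19 (SE) for the whole interval and 0.65 ± 0.19 for the first day, with 0.07 ± 0.19 (-0.20 without centring) left for the second. As 5 of the 10 spots were dim and the intensities were not used, how far these ratios stand above background is not known here. Among the 10 Bmp2 spots the fitted values for the whole interval ran from 0.35 to 1.71, and only the highest of them was past 3-fold.

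**Figure D3:**
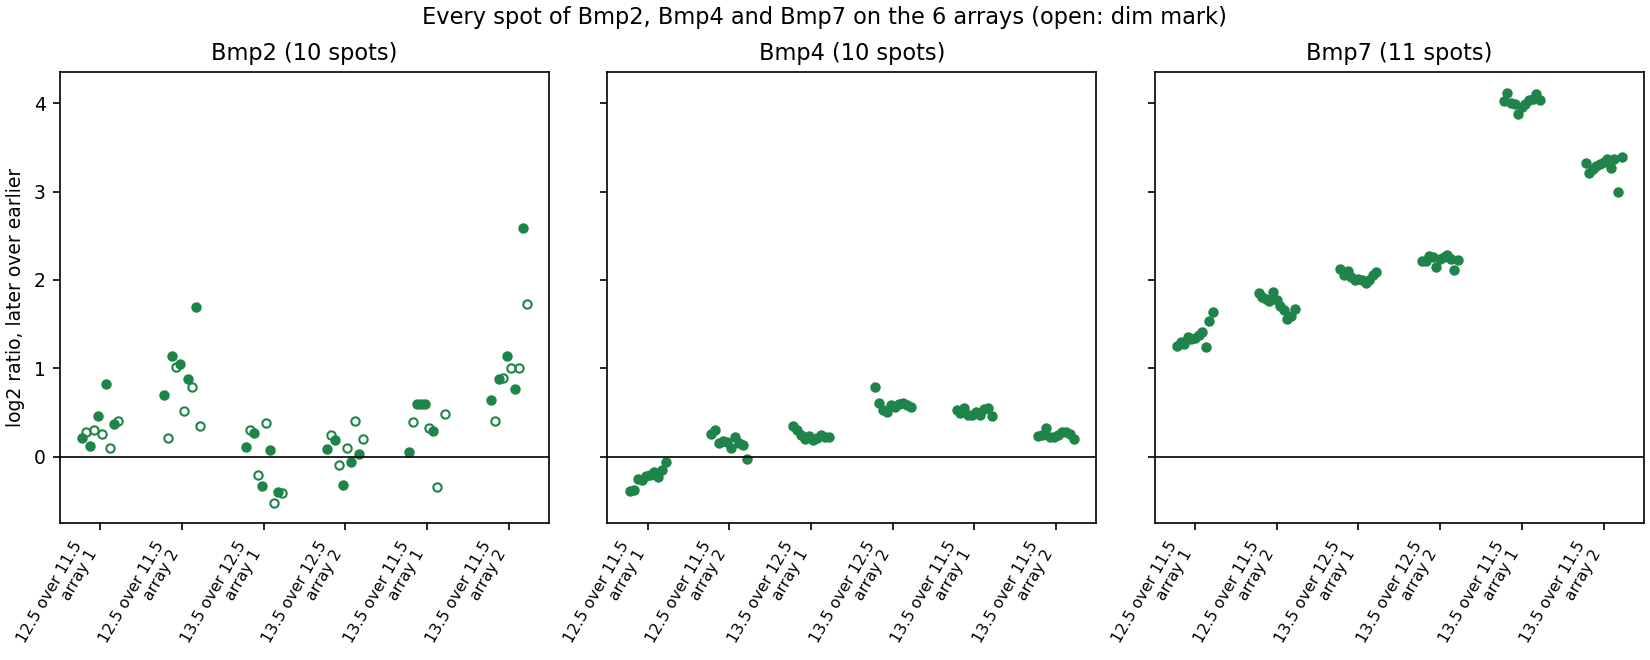
Log2 ratio of the later over the earlier age (vertical axis) of every spot of Bmp2, Bmp4 and Bmp7 on each of the 6 arrays, open where the spot carries the dim mark. The spots of Bmp7 and Bmp4 lie close together on each array, with SDs of at most 0.121 and 0.097, while those of Bmp2 spread with an SD of up to 0.624.

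Bmp5, the ligand whose loss causes the short ear mouse with its changed cartilage, peaked at 12.5 dpc in the fit, at 1.31 ± 0.41 (SE) over 11.5 dpc, and was 0.56 ± 0.41 lower at 13.5 than at 12.5 dpc (log2 ratio -0.56). Its 3 spots did not share this course. The only spot that was not dim read 0.72 and 1.32 for 12.5 over 11.5 dpc, 0.24 and 0.47 for 13.5 over 12.5 dpc and 1.75 and 1.64 for 13.5 over 11.5 dpc, and so was above 0 at each step. A dim spot of the same transcript read -2.37 and -0.53 for 13.5 over 12.5 dpc, and a dim spot of another transcript -1.79 and -0.42. Of the 18 values of the 3 spots, 3 were missing, and the early and late steps missed the direct comparison by 1.04 log2, the widest gap among the 10 genes. With those values missing, the array means behind this gap rest on 2 or 3 spots, not always the same ones. The SE comes from a fit to those means, not from the spot fits averaged here, and so is only a guide for Bmp5. The spot that was not dim alone gave 1.59 for 13.5 over 11.5 dpc, just past 3-fold.

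The receptors went the other way. Bmpr1b, the type I receptor that marks prechondrogenic condensations and is needed for the digit skeleton, was the only receptor past 3-fold. Its single spot, not dim, read -2.98 and -3.11 for 13.5 over 11.5 dpc, -1.43 and -0.76 for 12.5 over 11.5 dpc and -2.25 and -1.61 for 13.5 over 12.5 dpc. All 6 readings were below 0. The fit gave -3.04 ± 0.19 (SE), so the level was 8.23-fold higher at 11.5 than at 13.5 dpc, the 48th lowest ratio of all genes. The first day held -1.10 ± 0.19 and the second -1.94 ± 0.19, the 70th lowest ratio of that step, and 63.8% of the log2 change lay in the second. Relative to 13.5 dpc, its level was 8.23 at 11.5 dpc and 3.83 at 12.5 dpc. The farthest upstream of the 3 starts that RefSeq lists for Bmpr1b (GRCm38.p6, chr3:141982215-141982514, minus strand) is shown because its base content differs from that of the Bmp8a, Bmp8b and Bmp6 windows above. This is not a difference between ligands and receptors. G and C made up 48.3% of this window, 43.3% of that of the ligand Bmp5 and 83.7% of that of the receptor Acvr1. Capitals mark TATAAA and AACAAT on either strand.
Bmpr1b: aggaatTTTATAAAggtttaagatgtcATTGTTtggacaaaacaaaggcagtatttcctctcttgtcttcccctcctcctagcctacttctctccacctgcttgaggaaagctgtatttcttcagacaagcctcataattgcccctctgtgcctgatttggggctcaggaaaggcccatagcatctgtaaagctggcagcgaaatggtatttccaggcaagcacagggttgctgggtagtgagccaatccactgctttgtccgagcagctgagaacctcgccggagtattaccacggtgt
This window held 2 overlapping TATAAA matches at its upstream end, far from the start, and 1 AACAAT match, with no GC box and 5 CpG dinucleotides. The windows at the other Bmpr1b starts held no TATAAA.

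Acvr1, a type I receptor used by BMP6 and BMP7 and known for its part in heterotopic bone formation in people, differed from 11.5 dpc by about the same size at 12.5 and at 13.5 dpc. Its single spot read -1.04 and -0.98 for 12.5 over 11.5 dpc, -0.11 and 0.18 for 13.5 over 12.5 dpc and -1.03 and -1.20 for 13.5 over 11.5 dpc. On the centred arrays the whole difference was thus in place by 12.5 dpc. The fit gave -1.05 ± 0.08 (SE) for the first day, -0.01 ± 0.08 for the second and -1.07 ± 0.08 for both together, a level 2.09-fold higher at 11.5 than at 13.5 dpc, with 1.16% of the log2 change in the second day. This SE was the smallest of the 10 genes, but the difference was short of 3-fold. Its timing depended on the centre, as without centring the fit was -0.61 for the first day and -0.29 for the second.

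Bmpr1b and Acvr1 differed little in the first day and clearly in the second. Within an array, the log2 ratio of Bmpr1b was -0.39 and 0.22 from that of Acvr1 for 12.5 over 11.5 dpc, with opposite signs on the 2 arrays, and -2.14 and -1.79 for 13.5 over 12.5 dpc. Against Bmpr1a the Bmpr1b ratio was lower on all 6 arrays, by differences of -1.75 and -0.65 in the first day, -1.63 and -0.75 in the second and -2.73 and -2.10 over both.

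Bmpr1a, the type I receptor expressed across the limb mesenchyme, was -0.64 ± 0.18 (SE) for 13.5 over 11.5 dpc, with -0.25 on array 1 and -1.02 on array 2. Its 2 spots of 1 transcript gave -0.91 and -0.37 for that interval, and lay on opposite sides of 0 for 12.5 over 11.5 dpc, at -0.42 and 0.63, where the gene value was 0.10 ± 0.18. In the second day both spots were below 0 on both arrays, and the gene value was -0.74 ± 0.18. Bmpr2, the type II receptor, was -0.64 ± 0.13 for 13.5 over 11.5 dpc, with -0.50 and -0.82 on the arrays. Its 3 spots belong to 3 transcripts, and their fits were -0.29 and -0.57 for cDNA clones and -1.07 for the RefSeq messenger RNA. The difference fell mostly in the first day, at -0.56 ± 0.13, against -0.08 ± 0.13 in the second, but the spot of the RefSeq messenger RNA divided the other way, at -0.34 and -0.73. Without centring the gene value also divided the other way, at -0.11 and -0.36. Over the whole interval Bmpr1a and Bmpr2 did not differ beyond their errors.

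Taken by size over the whole interval, the order from the highest ratio was Bmp8a, Bmp7, Bmp6, Bmp5, Bmp2, Bmp4, Bmpr1a, Bmpr2, Acvr1 and Bmpr1b. Of the neighbours in this order, Bmp5 and Bmp2 (0.03 log2 apart) and Bmpr1a and Bmpr2 (0.004 apart) lay within the sum of their SEs. Bmp2 and Bmp4 were 0.34 apart against a sum of 0.31 but took opposite orders on the 2 direct arrays (Bmp4 minus Bmp2, 0.17 and -0.85). The other 6 pairs lay farther apart than their summed SEs, from 0.42 for Bmpr2 and Acvr1 to 2.31 for Bmp8a and Bmp7. Among them, Bmp7 and Bmp6 also changed order, at 4.02 and 2.07 on array 1 and 3.28 and 3.47 on array 2. Acvr1 and the RefSeq messenger RNA spot of Bmpr2 were both at -1.07. The widest gap, that between Bmp8a and Bmpr1b, was 9.79 and 8.76 log2 on the 2 direct arrays.

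By step, no BMP gene was past 3-fold in the fit for 12.5 over 11.5 dpc, where 1.24% of all genes passed upwards and 0.299% downwards. The 10 genes had a median of 0.38 there, with 1.10 for the ligands and -0.81 for the receptors, against -0.01 for all genes. This count of 0 was sensitive to where an array is centred, as 3 of the ligands (Bmp5, Bmp7 and Bmp8a) were past 3-fold with the values left at their deposited centres. The median of all genes shifted by 0.45 in that setting, and the share of all genes past 3-fold there was not computed. For 13.5 over 12.5 dpc, the same 3 ligands and the same receptor as over the whole interval were past 3-fold, where 1.35% of all genes were higher and 0.776% lower. The median of the 10 genes, 0.03, was near the -0.04 of all genes.

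**Figure D4:**
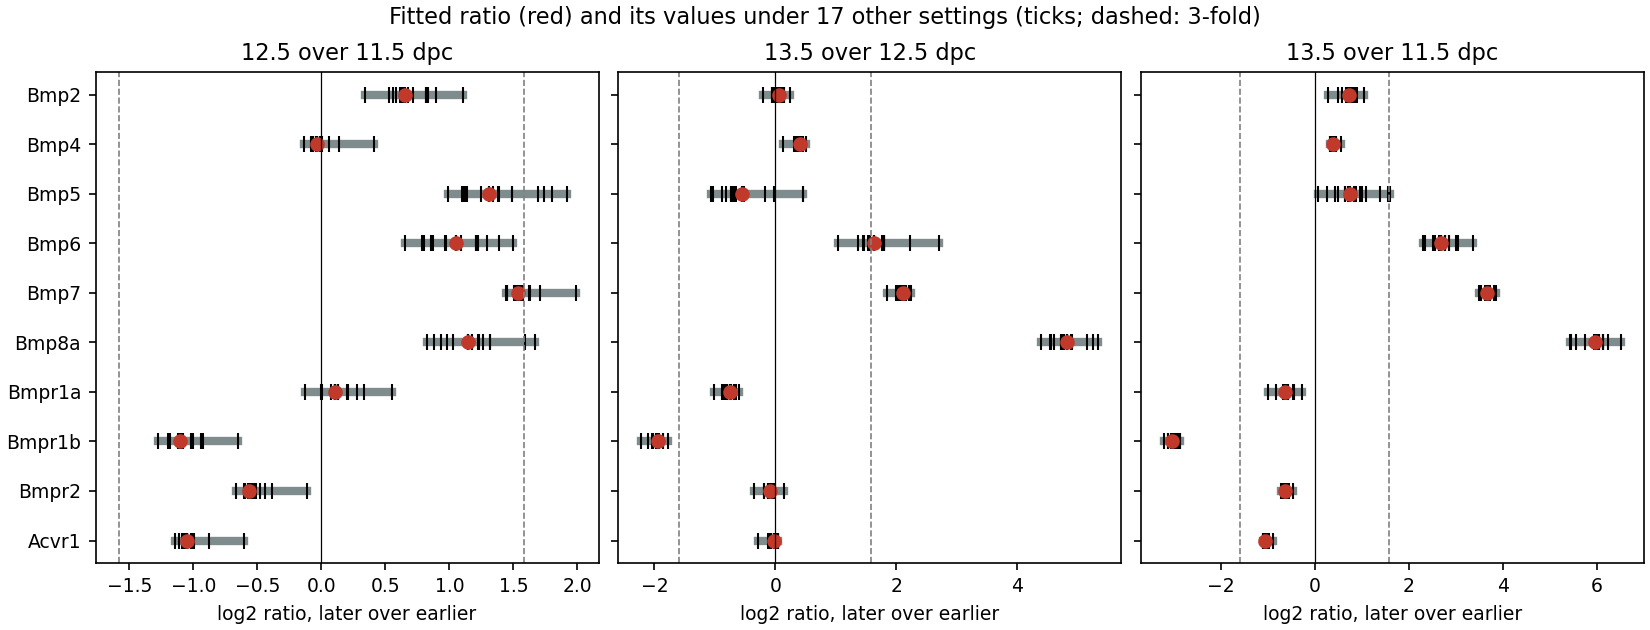
Fitted log2 ratio of each gene (red) and its values under 17 other settings (ticks, with the grey bar as their range) in the 3 comparisons, dashed lines at 3-fold. For 13.5 over 11.5 dpc the ranges of Bmp8a (5.42 to 6.51), Bmp7 (3.48 to 3.85), Bmp6 (2.30 to 3.36) and Bmpr1b (-3.22 to -2.86) stay outside the lines, whereas the first-day ranges of Bmp5, Bmp7 and Bmp8a cross them.

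The rest of the pathway was read from lists of genes chosen by known role. Of 13 other BMP and GDF ligands, 2 were at least 3-fold higher and 0 lower for 13.5 over 11.5 dpc, with a median of 0.45. Gdf10, a relative of Bmp3, was 1.84, with 2.03 and 1.70 on the direct arrays, and Bmp15, whose only spot was dim and which is named outside the rule because it had a value on 1 direct array only, was 1.75. The joint ligands Gdf5 and Gdf6, which fall outside the rule for naming genes and are given for their known role in the limb, were -1.21 and -0.83, and Gdf6 was 1.67 in the first day and -2.50 in the second. Of 10 other receptors and co-receptors, 1 was higher and 0 lower, with a median of 0.12. This was Bambi, a decoy receptor without a kinase, at 1.85 over 11 spots, with 2.21 and 1.53 on the arrays. The type II receptors Acvr2a and Acvr2b, also named outside the rule, were -0.62 and -0.67, near the -0.64 of Bmpr2. Of 8 Smads and Smad ubiquitin ligases of the BMP branch, 7 were measured and 0 passed 3-fold, with a median of -0.31.

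Secreted antagonists held 1 gene at least 3-fold higher and 2 lower among the 17 measured of 18, with a median of 0.32. Grem1, gremlin, an antagonist of BMP2, BMP4 and BMP7 in the limb bud, was -3.28, a level 9.69-fold higher at 11.5 dpc, with -2.99 and -3.77 on the arrays. Cer1, an antagonist best known from the early embryo, was -2.39, with -3.15 and -1.80. Its 1 spot did not fall at each step, at 1.19 in the first day and -3.58 in the second. Fst, follistatin, which binds activins and some BMPs, was 2.38, or 5.21-fold higher, with 2.58 and 2.43. Among 6 proteases that process BMPs or chordin, 0 were higher and 1 was lower. This was Tll1, a tolloid that cleaves chordin, at -2.14, with -3.02 and -1.55 on the arrays, the latter short of 3-fold. Of 14 measured BMP response genes of 16 listed, 2 were higher and 2 lower, with a median of -0.27. The higher genes were Bambi, counted above, and the homeobox gene Dlx5, at 2.13, and the lower ones the homeobox gene Msx2, at -2.02 over 10 spots, and the T-box gene Tbx3, at -2.20. Response genes thus lay on both sides of 0, 5 of 14 above it. Each of these shares is a count over few genes beside the 2.93% and 2.57% of all genes.

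**Figure D5:**
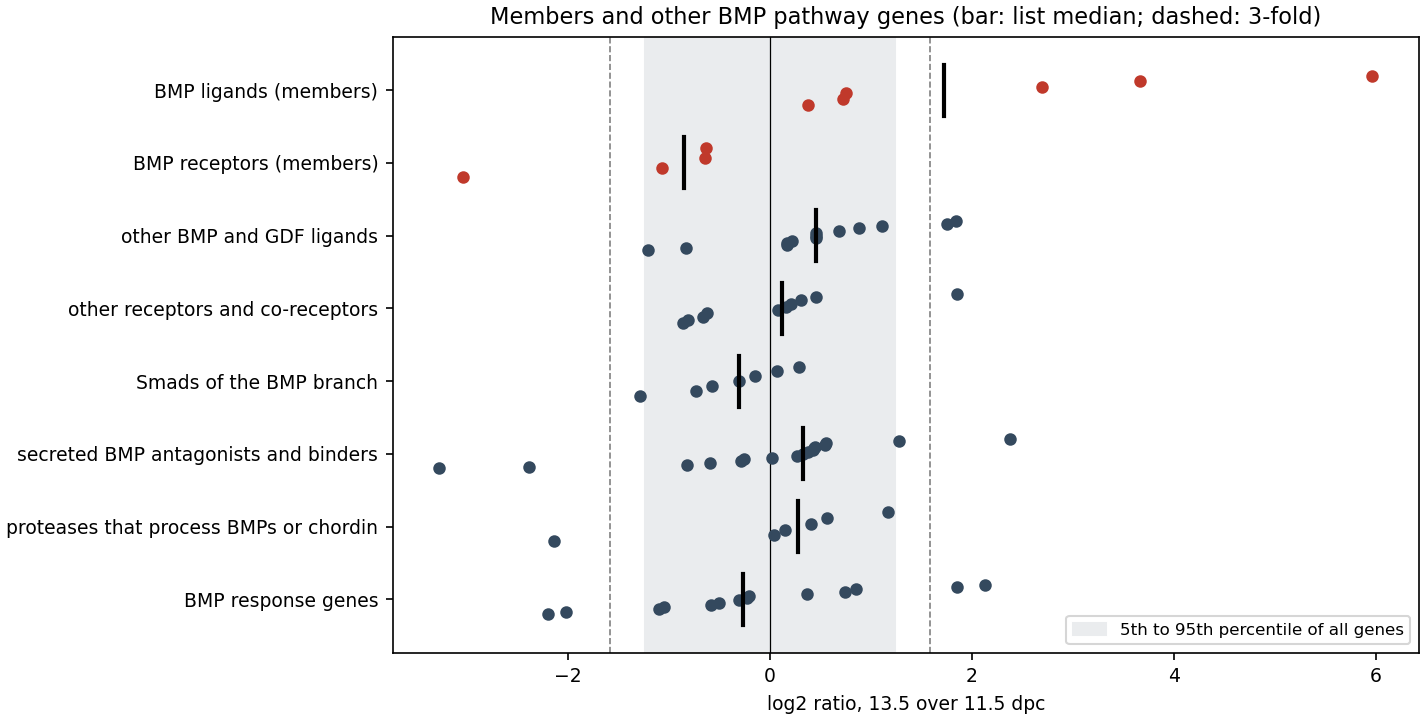
Log2 ratio of 13.5 over 11.5 dpc (horizontal axis) for each measured gene of the BMP lists, with the 10 ligands and receptors in red, black bars for the list medians, dashed lines at 3-fold and grey for the 5th to 95th percentiles of all genes. The ligand median lies at 1.72 and the receptor median at -0.85, and the other list medians lie between -0.31 and 0.45.

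The labelled tissues were set against marker genes of the cell types that the dissection could hold. Of 8 cartilage markers, 7 passed 3-fold upwards from 11.5 to 13.5 dpc in the fit, with a median of 3.84 for the list. Among them Col2a1 (3.98 and 0.61) and Col9a1 (2.15 and 1.53) were past 3-fold on array 1 only. The other marker, the chondrogenic factor Sox9, was -0.40, with opposite signs on the arrays (0.415 and -1.19). These 3 genes were named after their values were seen. The 6 markers of condensation and limb mesenchyme were all below 0, with a median of -1.10 and 1 gene past 3-fold. Of 3 measured markers of perichondrium and bone, with a median of 2.86, 2 were at least 3-fold higher. These were Col1a1 at 3.57 and Sp7 at 2.86, while Postn was -0.70. Of 4 hypertrophy markers 2 were higher, with a median of 2.38. The higher genes were Ihh at 3.71 and Alpl at 5.265, while Col10a1 was 1.05 and Mmp13, whose only spot was dim, 0.34. The perichondrium, bone and hypertrophy markers were named outside the rule, after their values were seen. Of 9 markers of ectoderm and its ridge, a BMP source next to the mesenchyme, 1 was lower and 0 higher, with a median of 0.00 and a range from -1.69 to 0.50. Of 3 measured blood markers 1 was lower, and the range ran from -5.01 to -0.97. Muscle had 2 of 6 higher, endothelium 1 of 6 lower, and the tendon, macrophage and Schwann cell lists 0 past 3-fold. The part of these other cells in the BMP ratios was not tested.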

How the data were processed

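RNA from 3 microdissected mouse hind limb pools was hybridised on 6 two-colour Agilent whole-genome arrays, 2 for each pair of ages with the dyes exchanged. The authors amplified the RNA in 2 rounds, acquired the spots with GenePix and describe print-tip loess normalization; the deposited values are log2 ratios of Cy5 over Cy3 for each spot, with column medians between -0.36 and 0.72, and 136 to 1905 of 45220 spots without a value on an array. The 39 to 60 values per array beyond 16 were set to missing, each column had its median subtracted and was turned to later over earlier by the dyes in the labels, and 2 differences per spot were fitted by least squares (Python 3.11.15, numpy 2.4.6, pandas 2.3.3). Spots carried 1 symbol in 33653 cases, several in 56 and none in 11511, and symbols of other genes were updated through Entrez identifiers for 33517 spots. The spot fits were averaged per gene, and the SE comes from the residuals of a separate fit to its 6 array means. For Bmp2 and Bmp5, which had missing values, these fits are not the same, so the SE is only a guide. The code was tested on simulated ratios of known fold. Both arrays of a dye pair carry the same RNA, so no p-value was computed, and the number of arrays limits the precision. Intensities were not used here, so depth above background is judged here only through the dim mark.

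The replicate number is the dye combination given in the labels; same-numbered arrays deviated together, with correlations of 0.442, 0.357 and 0.578 between comparisons. The genes and lists were chosen with earlier results of these data known, as was the centring. Named are all 10 BMP genes, genes of the BMP lists at least 3-fold different from 11.5 to 13.5 dpc with the same sign on both direct arrays, and for each called BMP gene the 3 genes most like it over 6 arrays; others are said to be outside this rule. Promoters came from RefSeq (GRCm38.p6), which matched 8 of the 10 genes. Alternatives were other centres, scaling, fits, array subsets, spot rules, the cap and thresholds.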

Additional observations from a re-analysis of the deposited data

Results flagged for a closer look

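Bmp5 had opposite signs in the steps on every direct array. It read 0.86 and 1.27 log2 for 12.5 over 11.5 dpc and -1.31 and -0.16 for 13.5 over 12.5 dpc, and the mean of the later pair was lower than that of the earlier pair by a difference of -1.80. This difference was not tested, since each age is 1 pool. The negative late values came from the 2 dim spots, and the spot that was not dim read 0.24 and 0.47 in that step.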

How the results depend on the processing

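Over 17 other settings, Bmp8a, Bmp7, Bmp6 and Bmpr1b stayed past 3-fold for 13.5 over 11.5 dpc in all 17, and Bmp8a, Bmp7 and Bmpr1b did so for 13.5 over 12.5 dpc, where Bmp6 did so in 10. Not every setting could move every gene. Bmp8a and Bmpr1b each have a single spot that was not dim. For them the spot median, leaving out dim spots and a replicate block return the fitted value unchanged. The count of ligands at least 3-fold higher for 12.5 over 11.5 dpc, 0 in the fit, was 3 without centring, 1 when centred on the spots that were not dim, 2 on the indirect path through 13.5 dpc and 4 at a 2-fold threshold. With arrays left out it ran from 0 to 2. It was 1 (Bmp5) without the 3 arrays of dye combination 1, 2 (Bmp5 and Bmp7) without array 1 of 12.5 over 11.5 dpc, and 1 (Bmp7) without array 2 of 13.5 over 11.5 dpc. At 2-fold, the genes lower were 2 for 13.5 over 11.5 dpc and 2 for 12.5 over 11.5 dpc, Bmpr1b and Acvr1 each time, and at 4-fold 0 were lower for 13.5 over 12.5 dpc. The share of all genes was not computed for these other settings and thresholds, so these counts have no background beside them. Values within 3-fold changed sign for Bmp4 in 4 settings and Bmpr1a in 2 for 12.5 over 11.5 dpc, and for Bmp2 in 5, Bmp5 in 2, Bmpr2 in 2 and Acvr1 in 6 for 13.5 over 12.5 dpc, where Bmp5 went from -0.56 to 0.46 once dim spots were left out. The cause of these shifts was not tested. A replicate block for the dye combination is balanced within each pair, so it cannot change the fit of a spot with all 6 values. The counts with it for 13.5 over 11.5 dpc, 3 higher and 1 lower, are therefore no check on the dyes. Only genes with missing values could move, and Bmp5 for 12.5 over 11.5 dpc was 1.49 in place of 1.31. Dim spots had a median of 0.46 for 12.5 over 11.5 dpc and other spots -0.175, so the centre depends on which spots are used. Without centring, the median of all genes shifted by 0.17 for 13.5 over 11.5, 0.45 for 12.5 over 11.5 and -0.28 for 13.5 over 12.5 dpc. With 1 pool per age, variation between animals is unknown. Single spots carry Bmp8a, Bmpr1b and Acvr1.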

Other observations

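The genes whose values were most like those of each called BMP gene over the 6 arrays were sought among 11787 genes without dim spots, by the root mean square difference in log2 ratio. The 6 arrays share 3 pools, so these are descriptions of likeness only. Bmp7 lay nearest to Chad, the cartilage matrix protein chondroadherin, at 0.193, then to C130050O18Rik at 0.196 and Mgst2, a microsomal glutathione S-transferase, at 0.263. Chad read 1.75 for 12.5 over 11.5 dpc and 3.78 for 13.5 over 11.5 dpc, beside 1.54 and 3.66 for Bmp7. Bmpr1b lay nearest to Epha7, an ephrin receptor, at 0.177, then to Ell3 at 0.179 and Art5 at 0.238, and Epha7 read -1.12 and -3.11 beside -1.10 and -3.04. Bmp8a had no neighbour as close: Sgms2, a sphingomyelin synthase, lay at 0.578, Lims2 at 0.758 and the forkhead gene Foxa2 at 0.765. For Bmp6, 1 of whose 2 spots was dim, the nearest were Olfr874 at 0.525, Agr2 at 0.577 and Cyp26a1, a retinoic acid hydroxylase, at 0.580.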
